A study of Homo sapiens with 117 samples.

Results

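The antigen receptor loci are the places in the human genome where B and T lymphocytes assemble immunoglobulin and T cell receptor genes. CTCF occupancy there was examined in DIvA cells, a U2OS osteosarcoma line, and thus in cells that do not rearrange these genes. Every CTCF peak with its summit in 1 of 5 windows of GRCh38 was taken as a member. The windows were IGH (chr14:105586000-106880000), IGK (chr2:88857000-90236000), IGL (chr22:22026000-22923000), TRA/TRD (chr14:21621000-22553000) and TRB (chr7:142299000-142814000). They held 17800 of 6621481 peaks over 24 peak lists. IGK held 7029 of them, IGL 4831, TRA/TRD 2209, IGH 2115 and TRB 1616.

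DIvA cells carry AsiSI fused to the estrogen receptor, so that 4-hydroxytamoxifen (4-OHT) brings the enzyme to the nucleus and DNA double-strand breaks (DSBs) follow. None of the 5 loci holds an AsiSI recognition site in the reference sequence. Cells expressed wild-type IDH1 (IDH1 WT) or IDH1 R132H, a cancer mutation that makes the oncometabolite D-2-HG. A further set of IDH1 R132H cells expressed the catalytic domain of the DNA demethylase TET1 (TET1 CD) or its inactive form (TET1 dCD). Both IDH1 forms came from lentivirus, so the lines are overexpression models on top of the cells' own IDH1. Each condition was sampled without 4-OHT (−DSB) or after 300 nM for 4 h (+DSB). There were 3 lists for IDH1 WT −DSB, 4 for IDH1 WT +DSB, 4 for IDH1 R132H −DSB, 4 for IDH1 R132H +DSB, 2 for TET1 CD −DSB, 2 for TET1 CD +DSB, 3 for TET1 dCD −DSB and 2 for TET1 dCD +DSB.

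Immunoglobulin and T cell receptor genes are put together from V, D and J segments by the RAG recombinase, which cuts at a recombination signal beside each segment. The loci are long, with the V segments on one side and the D, J and constant (C) segments on the other, and chromatin loops bring distant V segments close to the J segments. CTCF is a zinc finger protein that binds a directional DNA motif and stops cohesin as it extrudes a loop, most firmly when the motif points into the loop. In lymphocytes its sites in these loci take part in the contraction of the V region, and sites between the V and the D or J segments limit which V segments are used. CTCF can bind many of its sites in cells of other lineages as well.

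Some limits of the lists stood before any result. The run names written inside the lists went against the sample labels for 9 of the 24 lists. The 3 IDH1 WT −DSB lists carry a run name of IDH1 R132H, the 4 IDH1 R132H −DSB lists carry one of IDH1 WT, and TET1 dCD −DSB lists 1 and 2 carry one of TET1 CD with DSBs. Groups followed the labels, and each comparison is also given by run name. The lists held 111558 to 503609 peaks. The 3 lists with the fewest peaks, both TET1 CD +DSB lists and TET1 dCD −DSB list 3, stood apart. The shortest peak of a list, which follows the fragment length, ranged from 118 to 194 bp. The background, estimated as a single constant per list from its fold values, ranged from 1.04 to 5.73 reads. In 6 pairs, lists of 1 condition were counted as 1 sample, which left 18 samples. In 5 of these pairs the reads at shared summits agreed within sampling noise (chi-square p of 0.174 or more) while other lists of the condition differed, and the TET1 CD +DSB pair differed by less than the noise. The TET1 CD −DSB pair also agreed within the noise (chi-square p = 0.818), but there was no other list to compare it with and it did not fall below the noise, so it was kept as 2 samples. A legend of the study describes a pair of biological replicates for its CTCF ChIP-seq, fewer than the lists of most conditions. Its reporting summary gives 2 replicates in 1 place and 2 to 4 in another. No source used here ties a list to a culture. Some samples counted here may therefore share a culture, and p-values may be too small or measure technical spread only.

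A peak was ranked within its list by fold enrichment over background, with rank 1 the strongest, and called strong when it was among the 20000 strongest. Summits within 100 bp were joined over the lists into sites, and a site was called strong when it was strong in at least 12 of the 24 lists. The loci held 404 sites, of which 128 were strong and 76 were strong in all 24 lists. Sites are numbered along the chromosome in each locus (TRA_1 to TRA_27 for TRA/TRD), and the same numbers are used throughout.

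The strongest sites are shown here first, because position, direction and copies of the motif are what the loci turn on. Each run is 40 bases of GRCh38 read 5′ to 3′ in the direction of the motif, with the best match to a 20-base CTCF matrix in capitals. They are the strong sites of highest median rank in each locus, followed by those between the V and the D or J segments.
IGH_2, chr14:105680270-105680309, plus strand, upstream of IGHGP: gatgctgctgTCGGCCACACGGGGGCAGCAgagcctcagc
IGH_21, chr14:106664121-106664160, minus strand, downstream of IGHV3-65: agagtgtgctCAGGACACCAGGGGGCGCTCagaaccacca
IGH_8, chr14:106153536-106153575, minus strand, downstream of IGHV3-15: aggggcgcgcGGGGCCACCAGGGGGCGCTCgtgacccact
IGK_14, chr2:89552813-89552852, plus strand, in ENSG00000290846: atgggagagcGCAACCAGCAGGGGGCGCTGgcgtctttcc
IGK_5, chr2:89048552-89048591, minus strand, upstream of IGKV1-13: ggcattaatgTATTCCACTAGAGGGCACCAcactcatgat
IGK_30, chr2:90069464-90069503, plus strand, upstream of IGKV6D-41: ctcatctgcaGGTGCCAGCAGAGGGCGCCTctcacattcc
IGL_14, chr22:22559285-22559324, plus strand, in PRAME: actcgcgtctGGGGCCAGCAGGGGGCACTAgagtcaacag
IGL_21, chr22:22710885-22710924, plus strand, upstream of IGLV3-21: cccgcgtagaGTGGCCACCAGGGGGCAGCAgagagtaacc
IGL_7, chr22:22343004-22343043, plus strand, upstream of IGLV9-49: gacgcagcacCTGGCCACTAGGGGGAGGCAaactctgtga
TRA_13, chr14:21978355-21978394, plus strand, upstream of TRAV8-6: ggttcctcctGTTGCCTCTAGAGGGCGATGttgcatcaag
TRA_6, chr14:21846440-21846479, plus strand, upstream of TRAV8-2: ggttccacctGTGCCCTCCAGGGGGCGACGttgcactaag
TRA_9, chr14:21868619-21868658, plus strand, upstream of TRAV13-1: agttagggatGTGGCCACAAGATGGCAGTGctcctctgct
TRB_18, chr7:142783484-142783523, minus strand, upstream of TRBD1: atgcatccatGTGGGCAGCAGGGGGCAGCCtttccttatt
TRB_7, chr7:142483518-142483557, minus strand, downstream of TRBV5-5: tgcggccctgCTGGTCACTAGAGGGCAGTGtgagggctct
IGK_1, chr2:88874248-88874287, plus strand, IGKV4-1 to IGKJ1 interval: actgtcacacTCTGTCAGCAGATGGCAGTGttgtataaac
IGK_2, chr2:88880526-88880565, plus strand, IGKV4-1 to IGKJ1 interval: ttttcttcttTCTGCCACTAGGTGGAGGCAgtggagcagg
IGL_28, chr22:22884118-22884157, minus strand, IGLV3-1 to IGLJ1 interval: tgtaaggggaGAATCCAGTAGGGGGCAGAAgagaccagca
TRB_14, near TRBV17, ranked among the first 3 of TRB but held no match above the score threshold of the matrix.

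Strong CTCF sites were dense in all 5 loci. The loci held 25.51 strong sites per Mb, and chromosomes 1 to 22 and X held 6.527 per Mb, a ratio of 3.91. TRB was the densest locus at 36.89 per Mb (19 sites), followed by IGL at 31.22 (28 sites), TRA/TRD at 28.97 (27 sites), IGK at 23.21 (32 sites) and IGH at 17.0 (22 sites). In IGK, 268.0 kb of the window are unsequenced bases of the reference, and without them its density was 28.8 per Mb. The median gap between neighbouring strong sites was 18.51 kb in IGK, 19.69 kb in TRA/TRD, 22.76 kb in TRB, 23.07 kb in IGL and 36.98 kb in IGH, and 69.38 kb over the genome. IGH thus had the widest spacing among the 5 loci, and its median gap was still shorter than that of the genome.

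The loci differed in how high their strong sites ranked. Folds are relative to 1 constant background per list. Neither the ranks nor the numbers of strong sites were therefore corrected for the DNA copy number of a locus in these cells. The median rank of a site over the lists was within the first 5000 for 12 of 28 strong sites in IGL (42.9%), 5 of 32 in IGK (15.6%), 3 of 22 in IGH (13.6%), 1 of 19 in TRB (5.26%) and 1 of 27 in TRA/TRD (3.7%). The strongest site of all was IGL_14, in PRAME, a cancer-testis antigen gene that lies among the V segments of IGL. Its median rank was 667 and its ranks spanned 235 to 1579 over the 24 lists. By summits within the joining distance, IGK_14 (median rank 857.5) and IGL_21 (991) were the only other sites with a median rank within the first 1000. IGH_21 (4176.5) had its summit just outside that distance in 3 lists. With those peaks counted its median rank was 937.5, the highest of IGH. Without those peaks, the strongest sites of the remaining loci had median ranks of 3035.5 (IGH_2), 3533.5 (TRB_18) and 4606 (TRA_13). At the outer ends, the first and the last strong sites of IGH had median ranks of 10639.5 (IGH_1) and 18511 (IGH_22), and those of IGK 7328 (IGK_1) and 13424.5 (IGK_32). Those of IGL had median ranks of 7244.5 (IGL_1) and 17266 (IGL_28), those of TRA/TRD 13617 (TRA_1) and 19494 (TRA_27), and those of TRB 16821 (TRB_1) and 14198.5 (TRB_19).

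**Figure D1:**
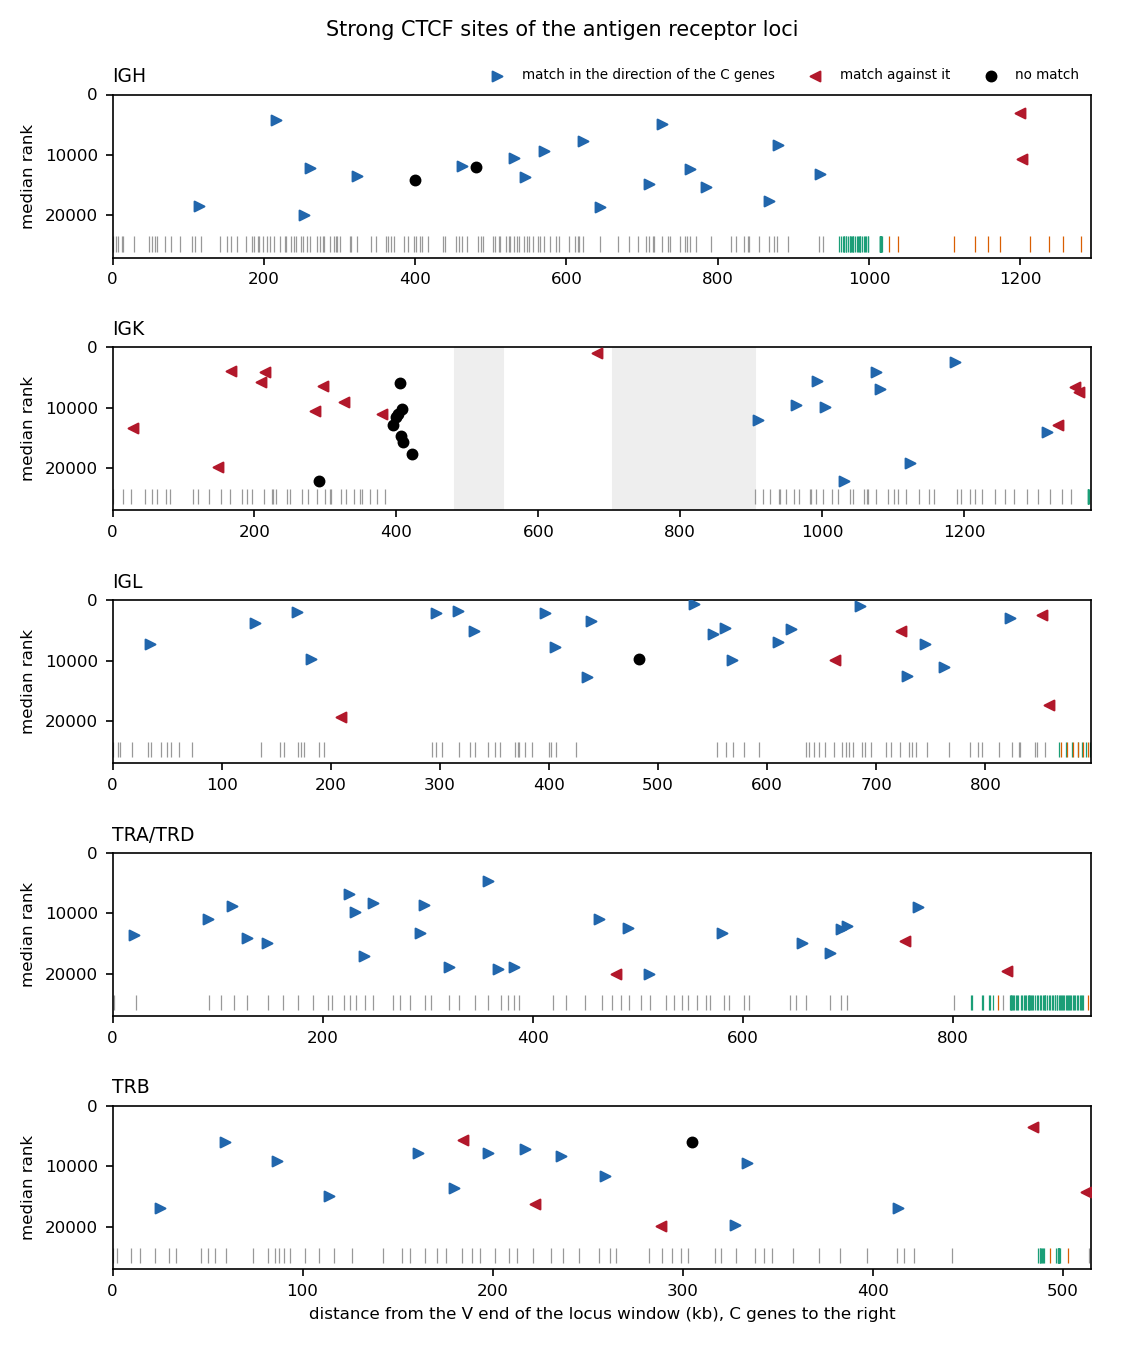
Position of the 128 strong sites in each locus (horizontal axis, kb from the V end of the window, with the C genes to the right) against median rank over 24 lists (vertical axis, strongest at the top). Triangles give the direction of the motif match, black dots are sites with no match, ticks mark V (grey), D and J (green) and C (orange) segments, and grey areas in IGK are unsequenced. Most matches of IGH, IGL and TRA/TRD point toward the C genes, and the matches of IGK change direction at the unsequenced middle.

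In IGH, TRA/TRD, IGL and TRB most motif matches pointed in 1 direction, and in IGK they were divided. A match was found at 115 of the 128 strong sites (89.84%), and at 84.19% of 3657 strong sites of the same 4 chromosomes outside the loci. The share in 121-base windows 1 kb beside the sites of the loci was 1.562%. Every strong site of TRA/TRD held a match, against 71.88% in IGK. In IGH, 18 matches pointed in the direction of transcription of the C genes and 2 against it. The counts were 24 and 3 in TRA/TRD, 22 and 5 in IGL, 13 and 5 in TRB and 10 and 13 in IGK. The 2 matches against this direction in IGH were IGH_1 and IGH_2, which lay among the C genes while the V region held all of the others. Of neighbouring matches, 88 of 110 (80.0%) lay on the same strand in the loci, against 1503 of 3070 (49.0%) on these chromosomes outside the loci. The share was 94.7% in IGH, 90.9% in IGK, 80.8% in TRA/TRD, 73.1% in IGL and 58.8% in TRB. These counts are descriptions, since neighbouring segments arose by duplication and are not independent.

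Many strong sites of IGH and TRA/TRD lay close beside V segments, on different sides, while most strong sites of IGL, IGK and TRB lay elsewhere. No strong site lay over an annotated segment. In IGH, 10 of 22 strong sites lay 54 to 89 bp past the 3′ end of a V segment, the side on which the recombination signal lies. These were beside IGHVII-1-1, IGHV4-4, IGHV3-11, IGHV3-15, IGHV3-21, IGHV3-22, IGHV3-30, IGHV4-31, IGHV3-49 and IGHV4-59, which include annotated genes and pseudogenes. No strong site of the other 4 loci lay within 100 bp past a V segment. In TRA/TRD, 14 of 27 strong sites instead lay 60 to 303 bp upstream of the annotated start of a V segment, where its promoter is. The same held for 7 of 28 sites in IGL (176 to 336 bp), 3 of 32 in IGK (130 to 182 bp) and 2 of 19 in TRB (45 and 123 bp), and for none of the 22 in IGH. Few V segments had such a neighbour. A strong site lay within 1 kb of the 3′ end of 15 of 127 V segments in IGH, 14 of 58 in TRA/TRD, 9 of 73 in IGL, 7 of 60 in TRB and 3 of 76 in IGK.

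**Figure D2:**
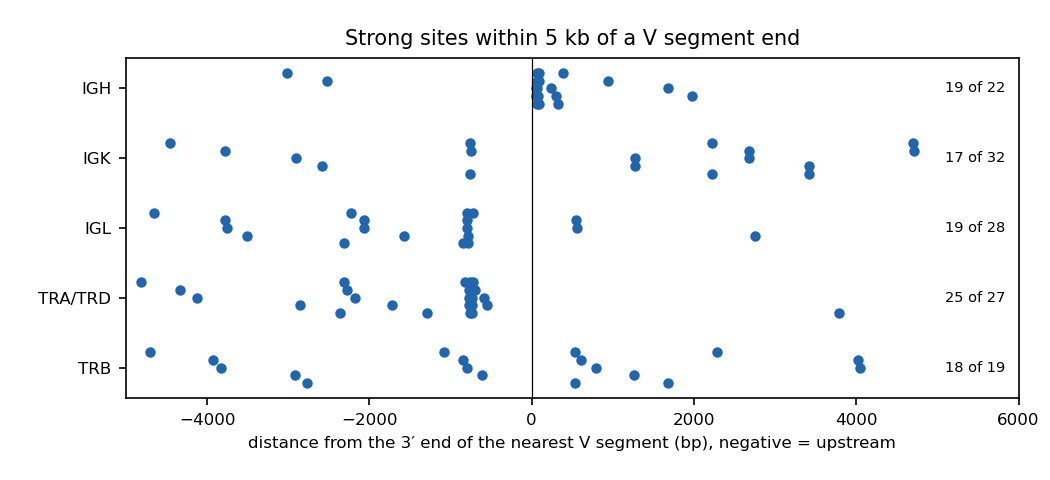
Distance of strong sites from the 3′ end of the nearest V segment in bp (negative is upstream), 1 row of points per locus, for the sites within 5 kb; the number shown of all strong sites is at the right. Points of IGH gather just past 0, and points of TRA/TRD and IGL gather in a column 500 to 900 bp upstream, which holds 14 sites of TRA/TRD and 7 of IGL.

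The interval between the last V segment and the first D or J segment differed between loci. IGK held IGK_1 (11144 bp upstream of the start of IGKV4-1, ranks 4261 to 9752) and IGK_2 (4863 bp upstream, ranks 2706 to 9159), both strong in all 24 lists. TRB held TRB_18, 2718 bp upstream of TRBD1, which ranked between 1455 and 6804 and was the strongest site of its locus. This interval of TRB also holds trypsinogen genes. IGL held IGL_28, which was strong in 16 lists. It ranked 7865, 8086 and 10409 in IDH1 WT −DSB and 7826, 9959, 10045 and 12746 in IDH1 R132H +DSB. It ranked 20803, 23791, 23860 and 24000 in IDH1 WT +DSB and 20188, 20271, 22398 and 29797 in IDH1 R132H −DSB, so the first 2 of these conditions did not overlap the other 2. In the interval from IGHV6-1 to IGHD1-1 there was no strong site. A list held 0 or 1 peak in these 20.24 kb, with rank 67190 at best. The interval from TRDV2 to TRDD1 was as empty, with 0 to 2 peaks per list in 15.5 kb and rank 111987 at best.

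IGK held near-mirror copies of its sites. The V segments of IGK lie in a proximal and an inverted distal copy, and 7 pairs of strong sites were inverted copies, with 96.81 to 100% identity of the 251 bases around 1 summit, aligned within the 301 bases around the other. All 7 pairs lay on opposite strands, with the same 20-base match in both sites. Their ranks were alike: within 1.5-fold of each other in 20 to 24 of 24 lists. IGK_8 and IGK_28, both beside copies of IGKV6-21, had median ranks of 4011.5 and 4049.5. IGK_12 and IGK_24, beside IGKV3-34 and IGKV3D-34, were 100% identical, with median ranks of 9525.5 and 9065.5. None of the 100-base sequences around the summits of this last pair is unique to 1 place, so reads of both copies cannot be told apart there. The share of unique sequences was 48.26% at IGK_8 and 44.78% at IGK_28, 28.36 to 88.06% at the sites of 4 other pairs, and 100% at both sites of IGK_6 and IGK_31, whose median ranks were 19118 and 19756. The part of shared reads in the likeness of the ranks was not tested for the other pairs.

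Other copies differed in rank, with the same match in both sites or with 1 base changed in it. IGK_5, upstream of IGKV1-13, and IGK_32, upstream of IGKV1D-43, have the same 20 bases in the match, 88.05% identity around it and only unique 100-base sequences. Their median ranks were 2494 and 13424.5, and in 0 of 24 lists were they within 1.5-fold. TRB_7 and TRB_10 also share all 20 bases, and had median ranks of 5573.5 and 16250.5. IGL_21 and IGL_24 differ by the substitution A10T (base of IGL_21, position counted from 1 at the 5′ end of the match, base of IGL_24), and had median ranks of 991 and 7232. The score of the match was 23.57 at IGL_21 and lower, 18.56, at IGL_24. The second site of each pair is printed for comparison with the first.
IGK_32, chr2:90207604-90207643, plus strand: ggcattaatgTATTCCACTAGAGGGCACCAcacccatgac
TRB_10, chr7:142521055-142521094, minus strand: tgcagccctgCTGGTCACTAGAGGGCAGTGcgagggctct
IGL_24, chr22:22770347-22770386, plus strand: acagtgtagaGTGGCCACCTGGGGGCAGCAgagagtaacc
The bases outside the capitals differ in each pair. Whether these bases, or the substitution between IGL_21 and IGL_24, bear on the rank was not tested.

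Sites without a match were concentrated in IGK. Of 13 such strong sites, 8 lay at chr2:89814422-89841097, between an unsequenced stretch and IGKV2D-40. All 8 were strong in each list of IDH1 WT −DSB and IDH1 R132H +DSB and in both TET1 CD −DSB lists. None of them was strong in IDH1 WT +DSB lists 1, 3 and 4, and 5 were in list 2. IDH1 R132H −DSB lists held 4, 6, 7 and 7 of them as strong, and the 3 lists of fewest peaks held 1, 1 and 2. The other TET1 dCD lists held 7 and 8 without DSBs and 7 and 6 with them. IGK_19, the strongest of the 8 by median rank (5845), ranked 635 to 22416 over the lists. IGK as a whole had 64.42% unique 100-base sequences, against 91.89% in IGH, 95.36% in IGL, 99.11% in TRA/TRD and 99.52% in TRB. Around the summits of IGK_16, IGK_17, IGK_18 and IGK_19, which are among these 8 sites, the share was 100%. These sites were inexact copies of each other in the same orientation. The identity was 84.46% for IGK_16 and IGK_18 and 83.67% for IGK_17 and IGK_19. The share counts exact 100-base sequences of the reference, so inexact copies and unsequenced bases do not lower it.

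Beyond the strong sites, IGK and IGL carried many weak peaks. Of the 17800 member peaks, 3046 (17.1%) lay at strong sites, 3805 (21.4%) at other sites and 10949 (61.5%) at no site, meaning that they were never within 100 bp of one of the 50000 strongest summits of any list. The last share was 72.9% in IGL, 71.8% in IGK, 49.4% in TRA/TRD, 46.4% in TRB and 25.6% in IGH. The same share over all peaks of the lists was not determined, so it is not shown to be particular to these loci. Peaks with a q-value under 0.05 made up 84.7% of the members.

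The share of matches with a CpG, the dinucleotide that carries most DNA methylation in human cells, separated the loci. A CpG lay in 44 of 115 matches (38.3%), against 43.0% of the 3079 matches outside the loci. It was in 19 of 20 matches in IGH, and in 37.0% of matches in IGL, 29.6% in TRA/TRD, 26.1% in IGK and 5.56% in TRB. IGH_21 and IGH_8 have 1 each, IGH_2 has 2, and TRB_18 has none.

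**Figure D3:**
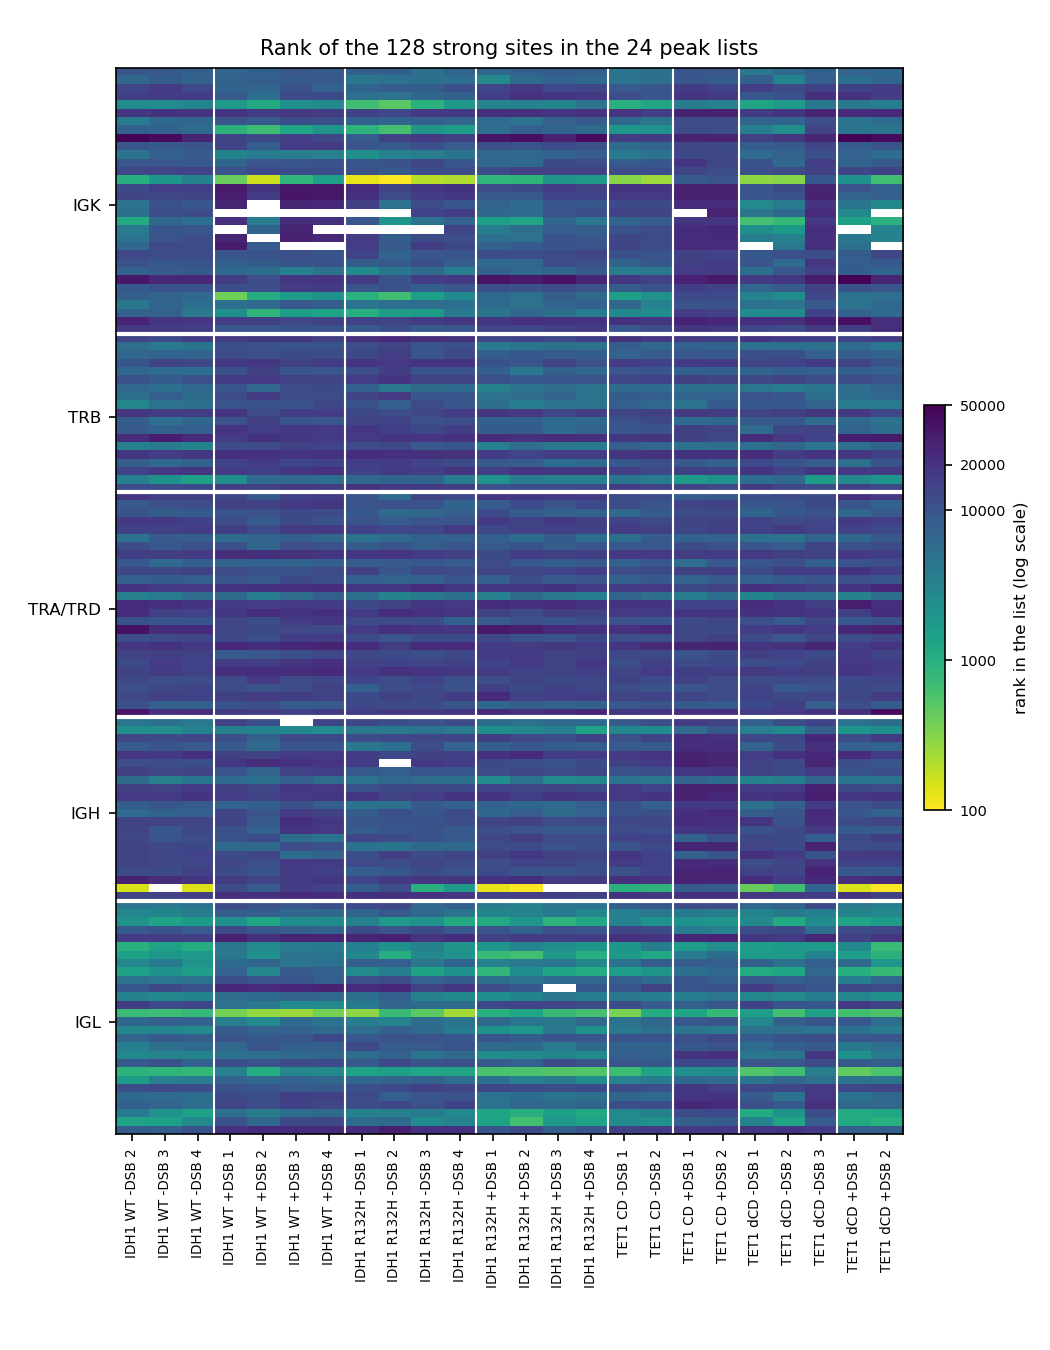
Rank of each of the 128 strong sites (rows, in chromosomal order within each locus) in each of the 24 lists (columns, by condition), on a log scale from 100 (yellow) to 50000 (dark); white marks a list with no summit within 100 bp. IGK_14 and IGL_14 are bright bands, IGH_21 is bright in only part of the conditions, and many IGH and IGK sites are dark in the 3 lists of fewest peaks.

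Over the conditions 76 of the 128 strong sites stayed strong in every list, while IGK_14 and IGH_21, each among the 3 sites of highest median rank in its locus, had ranks that varied widely over the lists. IGK_14 lies between the unsequenced stretches of IGK, where 13.43% of the 100-base sequences around its summit are unique. It ranked 81, 126, 194 and 210 in IDH1 R132H −DSB and 160, 429, 850 and 1440 in IDH1 WT +DSB. It ranked 1011, 1932 and 3126 in IDH1 WT −DSB and 865, 882, 1725 and 1995 in IDH1 R132H +DSB. The IDH1 R132H −DSB lists were apart from the last 2 conditions, and the IDH1 WT +DSB lists overlapped each of the other 3. In the 3 lists of fewest peaks it ranked 8692, 9069 and 10195, below every other list. IGH_21 ranked 138 and 144 in IDH1 WT −DSB, 86 and 125 in IDH1 R132H +DSB and 92 and 147 in TET1 dCD +DSB. It ranked 8158, 11720, 14384 and 16673 in IDH1 WT +DSB and 1025, 1737, 7964 and 11503 in IDH1 R132H −DSB. The remaining lists of these conditions, IDH1 WT −DSB list 3 and IDH1 R132H +DSB lists 3 and 4, had their summit 113 to 127 bp away, just outside the joining distance, with ranks of 162, 88 and 147. With these peaks counted, the median rank of IGH_21 was 937.5 in place of 4176.5. The conditions with high ranks of IGH_21 were also those with the shortest peaks (118 to 128 bp, against 143 to 191 bp in IDH1 WT +DSB and IDH1 R132H −DSB). The part of fragment length in these ranks was not tested.

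The 3 lists of fewest peaks held fewer strong peaks, mainly in IGH and IGK. They had 9 to 10 peaks of IGH among their 20000 strongest, against 19 to 26 in the other 21 lists, and 21 peaks of IGK against 29 to 38. The ranges in IGL (25 to 27 against 26 to 30), TRA/TRD (28 against 22 to 29) and TRB (20 to 21 against 16 to 20) touched or overlapped. Of the strong sites, 12 of 22 in IGH (54.5%) and 10 of 32 in IGK (31.2%) were not strong in any of the 3 lists. Over all loci this held for 26 of 128 (20.3%), and over the genome for 1249 of 19783 (6.31%). Without these 3 lists, 131 sites were strong in as large a share of the others.

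**Figure D4:**
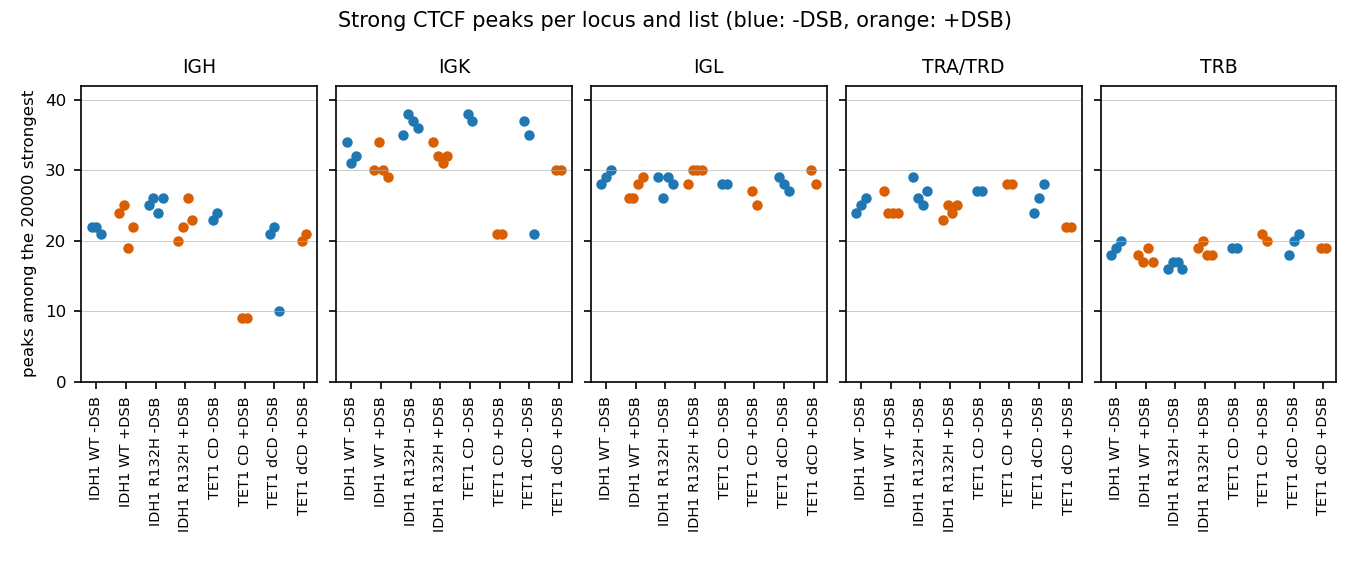
Number of each list's 20000 strongest peaks that lie in each locus (vertical axis), by condition (horizontal axis); each point is 1 list, −DSB in blue and +DSB in orange. IGH and IGK drop in the TET1 CD +DSB lists and in 1 TET1 dCD −DSB list, and the other loci stay within 1 peak of the range of the other lists.

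The study asked whether IDH1 R132H changes CTCF binding. Over the 5 loci, the mean number of peaks was 807.8 ± 25.1 (SD, n = 2) in IDH1 WT −DSB, 761.7 ± 165 (n = 3) in IDH1 WT +DSB, 766.8 ± 143 (n = 3) in IDH1 R132H −DSB and 831.5 ± 57.0 (n = 3) in IDH1 R132H +DSB. The genotypes overlapped. Averaged over both treatments, R132H had 14.46 peaks more than WT (two-sided exact permutation test within treatment, p = 0.855; adjusted p = 1.0). By run name the difference was 55.38 (p = 0.445, exact permutation test). Of the 20000 strongest peaks of a list, the loci held 126.8 ± 1.06 (SD, n = 2), 123.8 ± 2.93 (n = 3), 133.2 ± 0.764 (n = 3) and 127.2 ± 2.75 (n = 3) in the same order. R132H was higher by 6.417 without DSBs and by 3.333 with them, on average 4.875 (exact permutation test, p = 0.015; adjusted over 3 tests, p = 0.045; smallest possible p = 0.005). By run name this difference turned to −1.542 (exact permutation test, p = 0.47), and the number of strongest peaks taken decided the call too, with 4.667 (exact permutation test, p = 0.375) at 10000 and 1.833 (p = 0.92) at 50000. TET1 CD and TET1 dCD held 119.8 and 119.5 strong peaks on average, a difference of 0.25 that hid opposite signs: 16.5 without and −16.0 with DSBs (exact permutation test, p = 1.0; 18 permutations allow no p under 0.0556), and by run name the difference was 12.38 (exact permutation test, p = 0.444). The 3 lists of fewest peaks supplied the only TET1 CD +DSB sample and 1 of 2 TET1 dCD −DSB samples.

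Heights of single sites were compared for the 177 member sites found in all 24 lists, 119 of them strong, within a limma fit of all 28980 such sites of the genome. A site's relative height is its fold enrichment less 1, divided by the median over these sites in the same list, and changes are on the log2 scale. A site missing from any list was not tested. For R132H against WT, averaged over both treatments, 0 of 177 member sites passed an adjusted p of 0.05, and 0% of all sites did. The unadjusted p was under 0.05 at 5 members and at 2180 of all sites. The member changes ran from −0.34 to 0.625, with a median of 0.0786. By run name the same contrast called 119 members (72 higher, 47 lower), where 73.4% of all sites were called, 46.3% higher and 27.1% lower. Under the labels, genotype differences of opposite sign in both treatments cancel in this average. At the site near IGKV1-27, named below for its large changes, mean relative height without DSBs was 0.25 in WT and 1.09 in R132H. With DSBs it was 1.07 in WT and 0.268 in R132H. The genotypes were not compared by limma within each treatment.

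The change with 4-OHT differed between the 2 genotypes at most tested members. In IDH1 WT, 36 members rose and 64 fell after 4-OHT (100 of 177 called; 64.3% of all sites were called, 22.4% higher and 41.8% lower). In IDH1 R132H, 57 rose and 36 fell (93 of 177; 54.2% of all sites, 33.6% higher and 20.6% lower). The interaction was called at 120 members, 72 with a higher and 48 with a lower 4-OHT change in R132H (74.1% of all sites, 46.7% higher and 27.4% lower). The members were called at shares near these background shares, and the difference from other sites was not tested. The median change of the members was −0.163 in WT and 0.129 in R132H, beside −0.255 and 0.195 over all sites. Quantile normalization brought the medians over all sites to −0.0253 and 0.0327 and left 61 members called in WT, 25 higher and 36 lower (41.9% of all sites, 19.6% higher and 22.2% lower). It left 65 in R132H, 35 higher and 30 lower (31.8% of all sites, 15.2% higher and 16.7% lower), and 96 for the interaction, 52 higher and 44 lower (56.4% of all sites). The median change of the members was then −0.013 in WT and −0.0204 in R132H, so their medians were no longer of opposite sign, and that of the interaction went from 0.335 to 0.0193. By run name 0 members were called in all 3 contrasts by limma, with 8, 5 and 3 members at an unadjusted p under 0.05. Depth and fragment length moved with these contrasts: the background was 1.04 to 1.65 reads in IDH1 WT −DSB and 1.06 to 1.62 in IDH1 R132H +DSB, against 4.05 to 5.73 in IDH1 WT +DSB and 2.36 to 3.37 in IDH1 R132H −DSB. Condition, run and library properties cannot be told apart in these contrasts.

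The counts that rose and fell are given by locus, beside 22.4% higher and 41.8% lower over all sites in WT and 33.6% higher and 20.6% lower in R132H. The shares depended on the strength of sites. Over the strong sites of the genome, fitted alone, 13% were higher and 56.5% lower in WT. In R132H 51.3% of them were higher and 13.8% lower. In IGL, 24 of 36 sites fell and 3 rose in IDH1 WT after 4-OHT, while 2 fell and 25 rose in IDH1 R132H. In TRB, 15 of 26 fell and 3 rose in WT, while 3 fell and 19 rose in R132H. TRA/TRD had 13 sites that rose and 9 that fell in WT, and 3 and 14 in R132H. IGK had 12 and 11 in WT and 5 and 13 in R132H, and IGH had 5 and 5 in WT and 5 and 4 in R132H. Quantile normalization gave 19.6% higher and 22.2% lower over all sites in WT, and 15.2% higher and 16.7% lower in R132H. With it TRB had 16 sites that fell and 2 that rose in WT, and 1 that fell and 18 that rose in R132H. IGL had 10 that fell and 2 that rose in WT, and 2 that fell and 10 that rose in R132H. In IGK that scaling left 4 that fell and 11 that rose in WT, and 13 and 2 in R132H, and in TRA/TRD 3 and 7 in WT and 12 and 2 in R132H. IGH had 3 and 3 in WT and 2 and 3 in R132H. By run name limma called 0 in every locus for both 4-OHT changes. Both treatment contrasts use different samples under the labels. Under the run names, which exchange the untreated lists, both would hold the genotype difference, with opposite signs. None of these counts was tested between loci.

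The member sites of largest change lay in IGK and TRA/TRD and were low in IDH1 WT −DSB and IDH1 R132H +DSB. At the site near IGKV1-27 (summit at position 89205343 of chromosome 2), the relative height was 0.188, 0.233 and 0.379 in IDH1 WT −DSB and 0.967, 1.05, 1.1 and 1.13 in IDH1 WT +DSB. It was 0.857, 0.989, 1.03 and 1.33 in IDH1 R132H −DSB and 0.193, 0.26, 0.29 and 0.338 in IDH1 R132H +DSB. The groups within each genotype did not overlap. The log2 change with 4-OHT was 2.10 (SE 0.258, limma adjusted p = 0.000138) in WT and −2.01 (SE 0.231, adjusted p = 0.000121) in R132H, a difference of −4.11 (SE 0.347, adjusted p = 3.06e-06). The sites near IGKV2D-28, IGKV1D-16 and IGKV2D-29 were low and high in the same IDH1 conditions. In the IDH1 lists low heights went with short peaks (121 to 128 bp) and high heights with longer ones (143 to 191 bp). The TET1 dCD +DSB lists (shortest peak 118 and 119 bp) had 0.283 and 0.241 at IGKV1-27. The TET1 CD +DSB lists (194 bp), both among the 3 lists of fewest peaks, had 0.382 and 0.36. The part of fragment length in these heights was not tested. IGKV2D-28 changed by 1.94 in WT and −2.07 in R132H, IGKV1D-16 by 1.91 in WT, and IGKV2D-29 by −1.84 in R132H. By run name the changes with 4-OHT at IGKV1-27 were −0.0151 in WT and 0.103 in R132H.

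The site near TRAV21 (position 22047280 of chromosome 14) was the only member called between TET1 CD and TET1 dCD, and this call depended on the samples. Its relative height was 0.426 and 0.482 in TET1 CD −DSB, 0.534 and 0.607 in TET1 CD +DSB, 0.317, 0.457 and 0.662 in TET1 dCD −DSB and 0.129 and 0.163 in TET1 dCD +DSB. The constructs overlapped without DSBs and were apart with them. The log2 difference averaged over treatments was 0.98 (SE 0.163, limma adjusted p = 0.0316), higher in TET1 CD, where 0.973% of all sites were called, 0.811% higher and 0.162% lower. Quantile normalization also called 1 member (0.104% of all sites), and the run names called 5 (1.78%). At 60 of 177 members the unadjusted p was under 0.05. Without TET1 dCD −DSB sample 3, 1 of the lists of fewest peaks, 68 members were called, 8 higher and 60 lower in TET1 CD (8.78% of all sites higher and 24.8% lower). Without either TET1 CD −DSB sample, IDH1 WT +DSB sample 1 or IDH1 WT +DSB sample 3+4, limma called 0 members, with 44 to 58 at an unadjusted p under 0.05. TET1 CD +DSB was 1 sample. The same site had an interaction of genotype and 4-OHT of −3.46 (SE 0.253, adjusted p = 1.71e-06) in IDH1 WT and R132H cells.

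**Figure D5:**
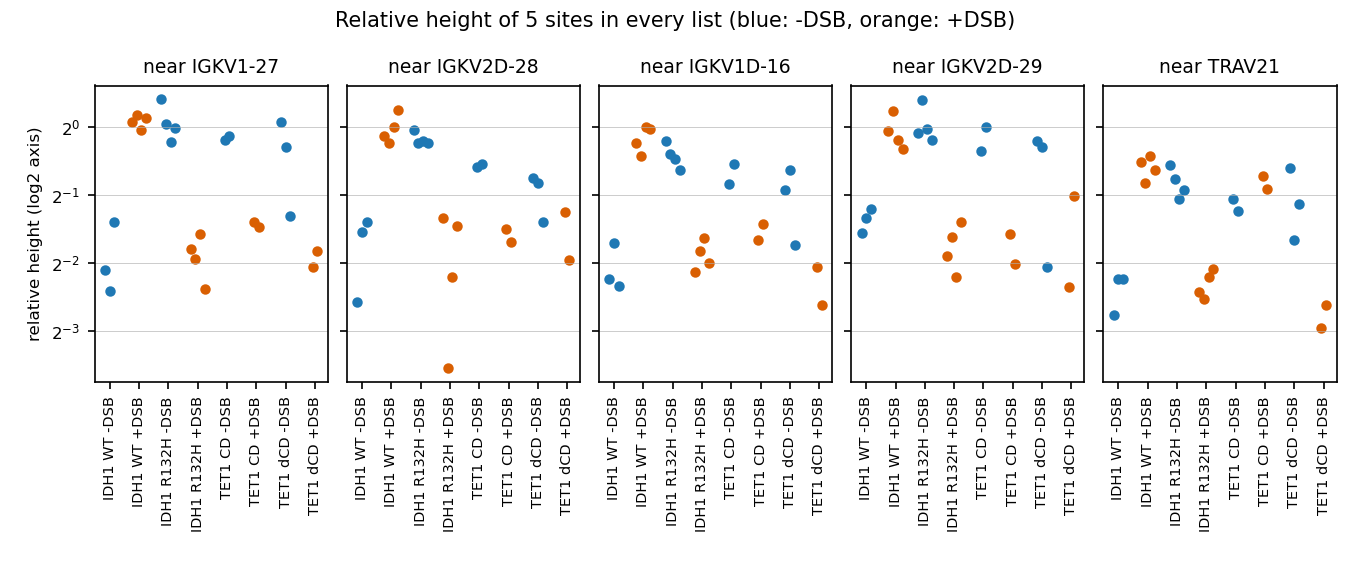
Relative height (log2 axis) of the 5 member sites named for the largest changes, by condition; each point is 1 list, −DSB in blue and +DSB in orange. At the site near IGKV1-27, IDH1 WT −DSB and IDH1 R132H +DSB lists lie below 0.38 and the other IDH1 lists lie above 0.85.

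The contrasts were also read by whether the match holds a CpG. This split goes with locus, since 19 of 20 matches in IGH and 5.56% of matches in TRB hold a CpG. The loci also differed in calls: the 4-OHT change in WT was called at 10 of 38 sites in IGH and 18 of 26 in TRB. In IDH1 WT, 3 rose and 16 fell of 41 tested strong members with a CpG, and 6 rose and 41 fell of 70 without one. In IDH1 R132H, 14 rose and 3 fell with a CpG, and 36 rose and 9 fell without one. Over all strong sites of the genome, fitted alone, 13% were higher and 56.5% lower in WT, and 51.3% were higher and 13.8% lower in R132H. With quantile normalization the counts in WT were 5 higher and 6 lower with a CpG and 6 and 20 without one, and in R132H 4 and 2 with a CpG and 19 and 10 without one. Over all tested sites, strong or not, that scaling called 19.6% higher and 22.2% lower in WT, and 15.2% and 16.7% in R132H. By run name limma called 0 in either set for both 4-OHT changes. On the main scale the median changes were −0.307 and −0.491 in WT and 0.175 and 0.335 in R132H, with and without a CpG. For R132H against WT, averaged over both treatments, the medians were 0.146 and 0.0623, with 0 called in either set. The difference between the sets was not tested, CpG and locus were not separated, and the shares over the genome were not split by CpG.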

How the data were processed

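CTCF ChIP was performed in DIvA cells with or without 300 nM 4-OHT for 4 h. Per the labels, the authors trimmed reads with cutadapt 1.18 and aligned them with Bowtie2 2.3.4.1 to GRCh38, and per the methods they called peaks with MACS2 for each sample against input. The deposited lists give, for each peak, a fold enrichment over background, which is a ratio, a score, and −log10 p-value and q-value. The summit (start plus offset) placed a peak in a locus. A single constant background per list, taken from the steps between its lowest folds, turned the folds into reads at the summit. These were whole numbers for 100% of the peaks in every list. Fold, rank and relative height are therefore relative to that constant and not to a local input background. The reads at a summit reached at most 2 times the shortest peak of a list, in every list, so the highest ranks are compressed. 24 of 117 samples of the series were used, and the others were not analysed here. The members and the lists were chosen with earlier results of these data known.

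Reference sequence and GENCODE 44 segments were used for annotation. A 20-base CTCF matrix was built from strong sites on chromosomes without the loci, by 5 rounds of alignment around a core motif, and searched within 60 bp of summits on both strands. A match was a score over the 99th percentile of windows 1 kb beside those sites (10.84). Named sites were the 3 strong sites of highest median rank in each locus, the strong sites between the V and the D or J segments, the first and the last strong site, and the 3 sites of largest change per contrast among those called. Changes were fitted with limma 3.58.1 (R 4.3.3) on 18 samples in 8 conditions, with Benjamini-Hochberg adjustment over 28980 sites. The fit was tried on simulated data in which few sites changed and no list was shifted as a whole. The simulation therefore does not cover the wide changes called with 4-OHT here. Numbers of peaks were compared by exact permutation tests. Depth is known only through the peaks, and the number of peaks did not follow it throughout. IDH1 WT +DSB list 3 had 209058 peaks at a background of 5.73 reads. TET1 dCD +DSB list 1 had 503609 peaks at a background of 1.23 reads. Ranks were used to compare strength across lists, and relative heights for changes at single sites. Alternatives were other thresholds, quantile normalization, groups by run name, every list as its own sample, a replicate block and leaving out each sample.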

Additional observations from a re-analysis of the deposited data

Results flagged for a closer look

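The effect of 4-OHT differed between IDH1 WT and IDH1 R132H at 120 of 177 member sites (limma interaction, adjusted p under 0.05), where 74.1% of all sites were called. The difference of the log2 changes was −4.11 at the site near IGKV1-27, −4.01 (SE 0.674) at the site near IGKV2D-28 and −3.46 at the site near TRAV21. At these 3 sites the IDH1 WT −DSB and IDH1 R132H +DSB lists were low and the other IDH1 lists high, and no list of the first 2 conditions overlapped the others. By run name these differences were 0.118, −0.314 and −0.023. The run names exchange the untreated lists of both genotypes, so a difference between the 4-OHT changes under the labels becomes a difference between genotypes under the run names.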

How the results depend on the processing

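The number of strong sites was 62 with the 10000 strongest peaks of each list, 217 with the 50000 strongest, 76 when strong in all 24 lists, 128 with summits joined within 50 or 200 bp and 131 without the 3 lists of fewest peaks, the last chosen after seeing the data. The number of peaks in R132H minus WT turned to −15.0 with −log10 q of at least 10 and ranged from −18.96 (without IDH1 WT +DSB sample 3+4) to 60.54 when 1 sample was left out, and it was −12.33 without IDH1 R132H −DSB sample 1. For the strongest 20000 peaks, R132H minus WT was 4.667 with 10000 and 1.833 with 50000 peaks, −1.542 by run name, and 4.042 (without IDH1 WT +DSB sample 3+4) to 5.667 when 1 sample was left out, with 4.417 the lowest for a sample of 1 list. It had an exact permutation p of 0.05 without IDH1 WT +DSB sample 3+4 or any of the 3 IDH1 R132H −DSB samples. TET1 CD minus TET1 dCD was −10.62 with 10000 peaks, 34.62 with 50000, −1.667 with every list its own sample and no replicate block, and −5.5 (without TET1 dCD −DSB sample 3) to 0.5 when a sample of 1 list was left out, with 6.0 without TET1 dCD −DSB sample 1+2.

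Member sites called for R132H minus WT numbered 119 by run name, and 94 by run name with quantile normalization. Under the run names, with or without quantile normalization, the 4-OHT change in WT, that in R132H and their difference gave 0 calls each. The change in WT gave 61 calls with quantile normalization and 57 to 114 when 1 sample was left out, with 57 without IDH1 WT −DSB sample 2. The change in R132H gave 75 to 100, and the difference at least 103. TET1 CD minus TET1 dCD gave 8 calls over strong sites alone, 17 with limma-trend, 5 by run name, 0 by run name with quantile normalization, 75 with every list its own sample, 17 with quantile normalization added, and 0 to 68 when 1 sample was left out, with 68 without TET1 dCD −DSB sample 3. At the site near IGKV1-27 the run names gave −0.0151 in WT, 0.103 in R132H and 0.118 for their difference. The cause was not tested. Combinations with quantile normalization were chosen after seeing the data. The TET1 contrast could not be fitted without the 3 lists of fewest peaks or without its only TET1 CD +DSB sample.

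Replicate numbers did not pair the samples: deviations of lists of the same number had correlations of −0.111 to 0.363 (median 0.115, 21 pairs), and of other numbers −0.397 to 0.353 (median −0.0142, 63 pairs). With the replicate number as a block and every list its own sample, R132H minus WT was −8.143 for peaks and 5.0 for strongest peaks, and TET1 CD minus TET1 dCD −5.5. The replicate block gave 0, 114, 98 and 135 calls for R132H minus WT, the 4-OHT changes in WT and R132H and their difference. For TET1 CD minus TET1 dCD it gave 87, and 26 with quantile normalization.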
